A study of Mus musculus with 6 samples.

Results

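Desmosomes and hemidesmosomes are the anchoring junctions through which epithelial cells hold on to each other and to the basement membrane, and 10 genes that encode their parts were examined here in the tissue that forms the lens. The genes were Dsp, Dsg2, Dsc2, Pkp1, Pkp2, Pkp3, Jup, Perp, Itgb4 and Dst, and every probe of the array whose annotated symbol was one of them was taken. This gave 26 probes of 9 genes, out of 46632 probes on the array and 17711 genes named by at least 1 probe. No probe of the platform annotation used here carried the symbol Dsp, so desmoplakin, the plakin that ties the desmosome to keratin filaments, was not analysed here. Of the 26 probes, 16 in 7 genes were detected above background on at least 3 of the 6 arrays and could be tested.

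In a desmosome, cadherins of the desmoglein and desmocollin families span the gap between neighbouring cells. Inside the cell their tails bind the armadillo proteins plakoglobin and the plakophilins, which bind desmoplakin and through it the keratin filaments. A hemidesmosome does the same job towards the basement membrane, with integrin α6β4 as the receptor and plectin and the epithelial form of dystonin as the links to keratin. The lens placode is head ectoderm that thickens where it touches the optic vesicle and then folds inwards to make the lens, so its cells are joined and anchored as an epithelium.

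The study compared 3 wild type embryos with 3 embryos lacking Pax6 (Pax6-/-), the transcription factor without which the lens does not form, all at embryonic day 9.5 and all from a mixed background of FVB and 129. For each embryo, the prospective lens tissue of the left and right eye together was cut from frozen sections by laser microdissection and measured on 1 Illumina BeadArray after amplification of its RNA. The labels call the wild type tissue lens placode and the knockout tissue surface ectoderm, so the genotypes differ in tissue name as well. They do not say which part of Pax6 is deleted, and they name no other allele or agent. All 6 arrays lay on 1 BeadChip with the genotypes alternating.

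The values below are normalized log2 signals, each from 1 embryo, and a change is the mean of the 3 knockout values minus the mean of the 3 wild type values. Changes were tested with limma over all 19381 probes that passed the detection filter, with Benjamini-Hochberg adjustment at 5%. In that test 11 probes of the whole array fell and 7 rose, and when arrays were scaled by their medians instead 8 fell and 3 rose. Leaving out 1 array gave counts of 0 to 5 in all. Maf, a lens transcription factor, fell by 3.86 (adjusted p = 0.00386) and Prox1, another one, fell by 2.22 (adjusted p = 0.0330). Over 18 fits, the one reported and the alternatives by probe, Maf was called in 16 (adjusted p up to 0.0764) and Prox1 in 9 (up to 0.242). The 3 tested Pax6 probes had changes of -0.74, -0.66 and -0.41 (adjusted p = 0.448, 0.527 and 0.876), and whether they lie in the deleted part is not given. The X-linked RNA Xist was at least 18.1-fold higher in the wild type arrays by its brighter probe, and the Y-linked Eif2s3y at least 4.98-fold higher in the knockout arrays by its called probe (adjusted p = 0.000718 and 0.0236), so genotype and sex cannot be told apart in any value below. Probes of the Y-linked genes Kdm5d (at least 2.10-fold, adjusted p = 0.0637) and Uty (a change of 2.71, adjusted p = 0.228) did not pass. Knockout 1 was the dimmest array, with a median signal of 41.7 against 47.3 to 49.8 on the other 5, and it stood apart on the first principal component, at 64.0 against -31.2 to 1.55.

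None of the 16 tested junction probes passed the threshold, and none had an unadjusted p under 0.05. Over all 19381 probes the same limma test called 0.0929% after adjustment and 7.22% at an unadjusted p under 0.05. The unadjusted p of the 16 ran from 0.11 to 0.867 and the adjusted p from 0.797 to 0.989. Their changes were negative for 11 probes and positive for 5, with a median of -0.24, beside a median of -0.0039 and 50.6% negative changes over all tested probes. Median scaling moved the median of all probes to -0.15, the median of the 16 to -0.42 and the split to 13 negative and 3 positive. The standard errors of the 16 ran from 0.19 to 0.55 on the log2 scale, beside a median of 0.28 over all tested probes. Their 95% confidence intervals reached as low as -2.10 and as high as 1.17. No change was established by these tests. In tissue cut from sections, the share of epithelial cells and the RNA per cell cannot be told apart.

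**Figure D1:**
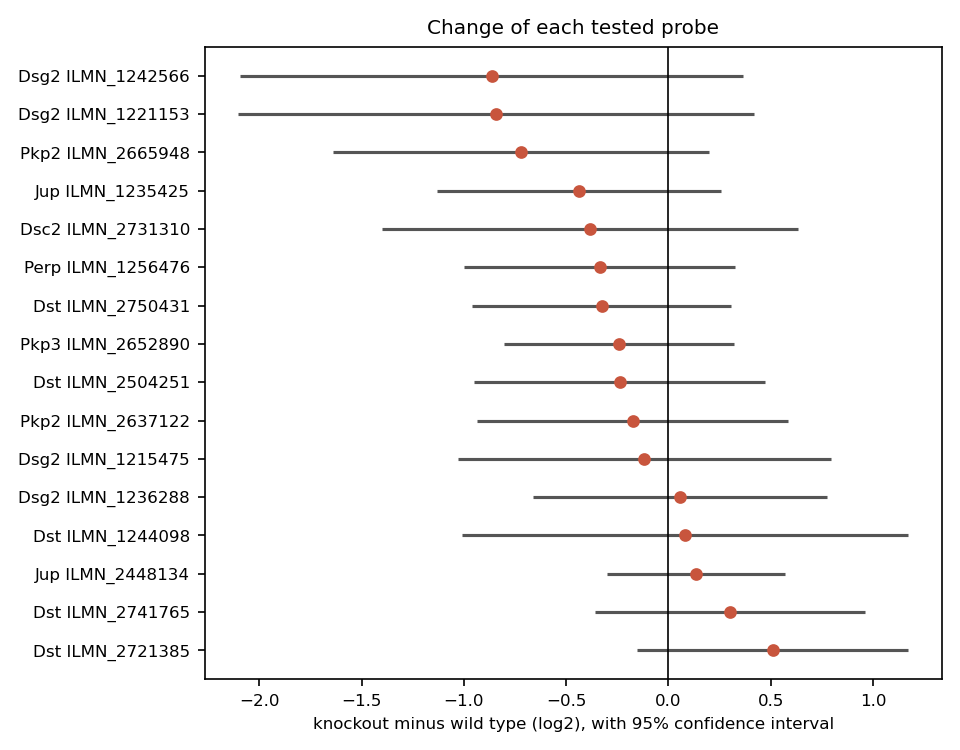
Change (knockout minus wild type, log2) of each tested junction probe on the horizontal axis, with bars for its 95% confidence interval from limma and a vertical line at 0. Every interval crosses 0, and 11 of the 16 points lie to its left.

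Among the desmosomal cadherins, Dsg2, the desmoglein found in simple epithelia, had 4 tested probes. By probe ILMN_1221153 its values were 7.72, 7.21 and 7.55 in the wild type embryos and 7.63, 7.08 and 5.24 in knockout 1, 2 and 3. Knockout 1 and 2 lay within or just under the wild type range, and knockout 3 alone was low. The change was -0.84 (SE 0.55, 95% confidence interval -2.10 to 0.42, adjusted p = 0.849), and without knockout 3 it was -0.14. The raw signal of knockout 3 was 62.9, with a standard error over its 40 beads of 5.49%, against 164 to 247 on the other arrays.

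The second Dsg2 probe, ILMN_1242566, turned on 1 wild type embryo. Its values were 5.59, 5.56 and 7.69 in the wild type and 5.44, 5.41 and 5.40 in the knockout. All 3 knockout values lay below all 3 wild type values, by a small margin for wild type 1 and 2 and by over 2 log2 units for wild type 3. The change was -0.87 (SE 0.54, interval -2.09 to 0.36, adjusted p = 0.833) and -0.15 without wild type 3, whose raw signal was 254 against 76.4 and 76.4 in the other wild type embryos. It was the 1 probe of the 16 whose knockout values all lay under the wild type values, a pattern that 6.47% of all tested probes showed.

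The remaining Dsg2 probes went other ways. By ILMN_1236288 the values were 5.98, 6.03 and 6.38 in the wild type and 6.45, 6.17 and 5.96 in the knockout, a change of 0.06 (SE 0.32, adjusted p = 0.988). By ILMN_1215475 they were 5.38, 6.07 and 5.07 against 6.27, 4.90 and 4.98, a change of -0.12 (SE 0.40, adjusted p = 0.987), and the probe was detected in 2 wild type embryos and 1 knockout embryo. The genotypes overlapped by both. The embryo that stood out by ILMN_1221153, knockout 3, lay within 0.1 of the lowest wild type value by both of these probes, and wild type 3 was not high by ILMN_1221153 or ILMN_1215475.

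Dsc2, the desmocollin that pairs with Dsg2, had 1 probe, ILMN_2731310. Its values were 6.69, 6.17 and 5.59 in the wild type and 6.61, 5.24 and 5.46 in the knockout. Knockout 1 lay near the top of the wild type range and the other 2 below all of it. The change was -0.38 (SE 0.45, interval -1.40 to 0.64, adjusted p = 0.933). It was -0.83 without knockout 1 and -0.11 without wild type 1.

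Among the armadillo proteins, plakoglobin (Jup), which binds the cadherin tails in desmosomes and also in adherens junctions, gave opposite signs by its 2 probes. ILMN_1235425 read 5.34, 6.05 and 6.14 in the wild type and 5.81, 5.17 and 5.24 in the knockout, a change of -0.44 (SE 0.31, interval -1.13 to 0.26, adjusted p = 0.86). Wild type 1 lay with the lower knockout embryos there, and knockout 1 with the wild type. ILMN_2448134 read 5.46, 5.28 and 5.42 against 5.69, 5.42 and 5.45, a change of 0.14 (SE 0.19, interval -0.30 to 0.57, adjusted p = 0.946). Raw signals of the latter probe ran only from 63.4 to 71.7, close above the lowest signals called detected, which were 50.8 to 58.2 over the 6 arrays. Those of knockout 2 and 3 by ILMN_1235425, 59.4 and 62.9, lay close above them too.

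The plakophilins stabilize the plaque by binding plakoglobin, desmoplakin and the cadherins. Pkp3, the plakophilin common to most epithelia, was measured by ILMN_2652890 and had the tightest wild type values of the tested junction probes, 8.58, 8.62 and 8.53. The knockout embryos read 8.91, 8.11 and 7.99, so knockout 1 lay above and the other 2 below all wild type embryos. By raw signal knockout 1, the dimmest array, read 424, under the wild type signals of 437, 457 and 425. The change was -0.24 (SE 0.25, interval -0.81 to 0.32, adjusted p = 0.921). Without knockout 1 it was -0.53, with an unadjusted p of 0.0199 and an adjusted p of 0.625 in limma. It was -0.07 without knockout 3.

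Pkp2, the plakophilin of simple epithelia and heart muscle, had 2 probes with negative changes. By ILMN_2637122 it read 6.16, 6.60 and 6.92 in the wild type and 6.22, 6.58 and 6.36 in the knockout, all knockout embryos within the wild type range (change -0.18, SE 0.33, adjusted p = 0.968). ILMN_2665948 read 5.35, 5.90 and 6.82 against 4.95, 5.82 and 5.14, and was detected in all 3 wild type embryos and in 1 knockout embryo. Wild type 3 was the high value, and knockout 2 lay with the wild type. The change was -0.72 (SE 0.40, interval -1.64 to 0.20, adjusted p = 0.797), the smallest p of the 16 probes, and without wild type 3 it was -0.32. Pkp1, the plakophilin of stratified epithelium, had 1 probe, ILMN_2762109, which was not detected on any array and was not tested.

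Perp, a tetraspan membrane protein that desmosomes need in stratified epithelium and that is a target of p63, was measured by ILMN_1256476. It read 8.39, 8.15 and 7.62 in the wild type and 8.22, 7.47 and 7.47 in the knockout. Knockout 2 and 3 lay below all wild type embryos, and knockout 1 between the highest 2. The change was -0.34 (SE 0.29, interval -1.0 to 0.33, adjusted p = 0.89). It was -0.59 without knockout 1 and -0.16 without wild type 1.

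**Figure D2:**
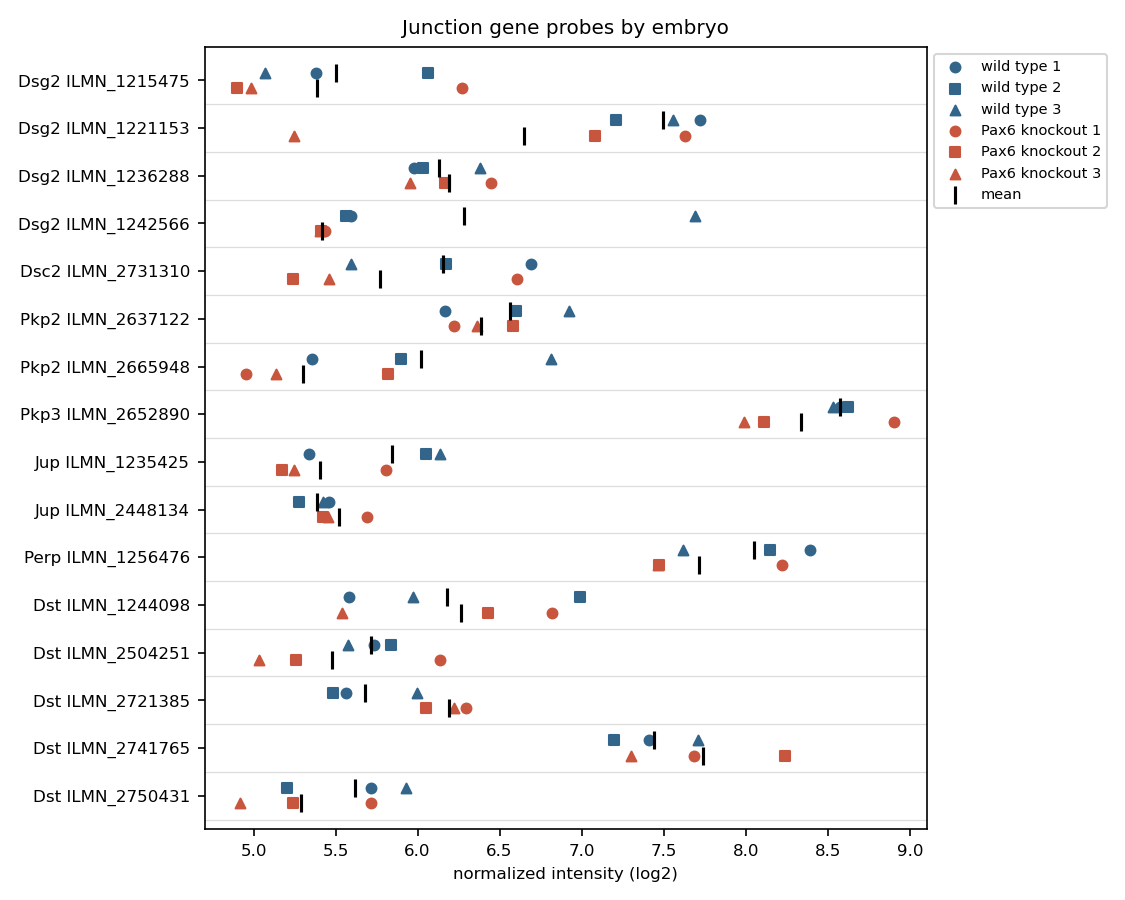
Normalized log2 signal of the 16 tested junction probes, with 1 point per embryo, blue for the 3 wild type and red for the 3 Pax6 knockout embryos, and a black tick at each group's mean. The genotypes overlap in all rows but those of Dsg2 ILMN_1242566 and Dst ILMN_2721385, and the low knockout 3 of Dsg2 ILMN_1221153 and the high wild type 3 of Dsg2 ILMN_1242566 stand alone.

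On the hemidesmosome side, neither of the 2 probes of Itgb4, the integrin β4 chain that is found only in the α6β4 receptor, was detected on any array. ILMN_2634689 had raw signals of 36.7 to 44.6 and ILMN_3162748 of 44.6 to 50.9. Both lay at the level of background in both genotypes, so these arrays give no change for integrin β4.

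Dst encodes dystonin, a large plakin whose epithelial form is the hemidesmosomal antigen BP230 and whose other forms link filaments and microtubules in nerve and muscle. Of its 12 probes 5 were tested, 4 of them among the 6 that the annotation assigns to 1 reference transcript and 1 of the 2 assigned to another. Which form each transcript encodes is not in the annotation used here, so no value below can be given to the hemidesmosomal form. By ILMN_2721385 the normalized values were 5.56, 5.48 and 6.0 in the wild type and 6.30, 6.05 and 6.22 in the knockout. Each knockout embryo lay above each wild type embryo, which 5.54% of all tested probes showed. By raw signal knockout 1 and 2 read 92.47 and 96.85, under wild type 3 at 97.03. The change was 0.51 (SE 0.29, interval -0.15 to 1.17, adjusted p = 0.80).

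The other Dst probes overlapped between genotypes. ILMN_2741765 read 7.41, 7.20 and 7.71 against 7.68, 8.24 and 7.30, a change of 0.30 (SE 0.29, adjusted p = 0.911) with knockout 2 high. ILMN_1244098 read 5.58, 6.99 and 5.97 against 6.82, 6.43 and 5.54, a change of 0.08 (SE 0.48, adjusted p = 0.989) with as wide a spread within as between genotypes. ILMN_2504251 read 5.74, 5.84 and 5.58 against 6.14, 5.26 and 5.03, a change of -0.24 (SE 0.31, adjusted p = 0.94). In that probe the normalized value of knockout 1 lay above and the other 2 below all wild type embryos. The raw signal of knockout 1, 85.2, lay within the wild type range of 77.3 to 89.0. Knockout 3 was not detected by this probe. The change was -0.60 without knockout 1 and -0.015 without knockout 3. ILMN_2750431 read 5.72, 5.20 and 5.93 against 5.72, 5.24 and 4.92, a change of -0.33 (SE 0.28, adjusted p = 0.888), with knockout 3 lowest and not detected. Probes of the same transcript thus had changes of both signs, from -0.33 to 0.51, with intervals that all crossed 0.

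The 10 probes that could not be tested, 1 of Pkp1, 2 of Itgb4 and 7 of Dst, had raw signals of 29.1 to 66.0 and normalized values of 4.73 to 5.33. Detection failed on all 6 arrays for 8 of them. The other 2, Dst ILMN_1222451 and ILMN_1230419, were detected in knockout 2 alone.

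**Figure D3:**
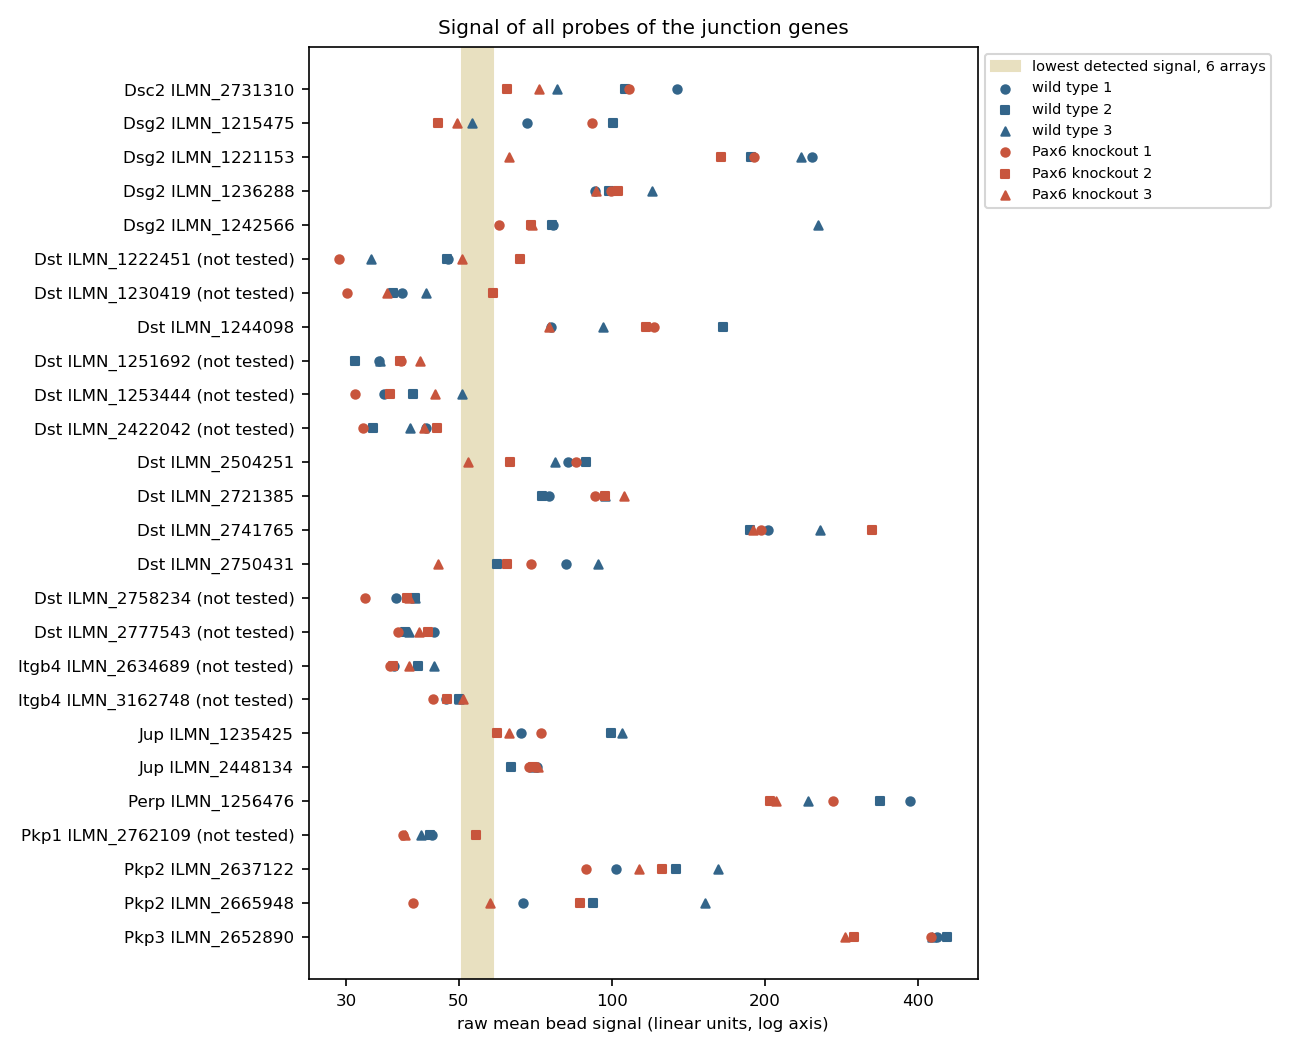
Raw mean bead signal (linear units on a log axis) of all probes of the junction genes, 1 marker per embryo (blue wild type, red Pax6 knockout), with a band for the lowest signal called detected on each array, 50.8 to 58.2. The probes of Pkp1 and Itgb4 and 7 of the 12 Dst probes lie at or to the left of the band in nearly every embryo.

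Across the members the knockout embryos did not move together. Knockout 1 was the highest of the 3 knockout embryos in 13 of the 16 tested probes, knockout 2 in 3 and knockout 3 in 0, while knockout 1 was the highest in 34.1% of all tested probes. With median scaling knockout 1 was highest in 11 of 16, beside 19.6% of all probes, and in the raw signal in 9 of 16, beside 16.5%. Set against the wild type mean of each probe, the median over the 16 probes was 0.28 in knockout 1, -0.40 in knockout 2 and -0.59 in knockout 3, beside -0.07, -0.04 and 0.15 in the wild type embryos. Over all tested probes these medians were -0.034, -0.0037 and -0.010 in knockout 1, 2 and 3. Knockout 1 lay below the wild type mean in 4 of the 16 probes, knockout 2 in 10 and knockout 3 in 14. The shares of all tested probes below it were 53.0%, 50.4% and 51.2%. With 1 probe per gene, the brightest, the medians were 0.17, -0.47 and -0.59, and 2, 5 and 7 of the 7 genes lay below the wild type mean. These are descriptions of the listed probes, with no test, and the 16 probes share 7 genes.

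Every array was left out in turn, and the fit without knockout 1, which stood apart over all probes too, is described here. As knockout 1 was mostly the highest knockout embryo, leaving it out by itself lowers the knockout mean of most junction probes. The junction probes then had 12 negative and 3 positive changes among the 15 that still passed the detection filter, with a median of -0.56. In limma 0 were called and 3 had an unadjusted p under 0.05, Pkp3 ILMN_2652890, Dsg2 ILMN_1221153 (-1.36) and Dst ILMN_2504251, beside 6.83% of all probes tested there. Their adjusted p were 0.625, 0.679 and 0.669. With any other array left out instead, 0 or 1 junction probes had an unadjusted p under 0.05 in limma, beside 5.58% to 7.77% of all probes.

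Markers of neighbouring cell types were read in the same embryos. Mean values of 8 optic vesicle genes that passed the detection filter, out of 12 listed, were 5.90 to 6.45 in the wild type, 6.50 in knockout 1 and 7.14 and 7.05 in knockout 2 and 3. For 6 of 10 red cell genes they were 6.10 to 7.43 in the wild type and 6.90, 7.67 and 8.35 in knockout 1, 2 and 3. Head mesenchyme and neural crest genes (8 of 13) averaged 6.63 to 6.85 in the wild type and 6.80 to 7.29 in the knockout, endothelial genes (5 of 10) 5.74 to 6.10 and 5.66 to 6.30, and neuronal genes (6 of 10) 6.13 to 6.49 and 6.58 to 6.75. The wild type and knockout ranges overlapped for the red cell, mesenchyme and endothelial lists. Each list held genes detected in all 3 embryos of both genotypes and genes whose probes did not pass the detection filter. In the optic vesicle list Rax, Six6, Otx2, Mitf and Fgf15 were of the former kind, and Vax2 and Hes5 of the latter. In the mesenchyme and crest list Prrx1, Prrx2, Twist1, Pdgfra, Foxc2, Col1a2 and Col3a1 were detected in all, and Col1a1, Foxc1, Sox10 and Lum did not pass. Kdr and Emcn of the endothelial list were detected in all, and Pecam1, Cdh5, Tie1, Tek and Esam did not pass. Hbb-bh1, Tal1 and Alas2 of the red cell list were detected in all, and Gata1 and Klf1 did not pass. Of the neuronal genes Tubb3, Isl1, Neurog2, Elavl3 and Elavl4 were detected in all, and Dcx, Neurog1, Neurod1 and Stmn2 did not pass. None of these 5 lists held a probe past the limma threshold. At an unadjusted p under 0.05 in limma there were 3 positive probes in the optic vesicle list and 0 in the endothelial list. The mesenchyme and crest list had 1 negative and 2 positive, and the red cell and neuronal lists 2 positive each. Over all tested probes the share was 7.22%. Changes were positive for 10 of 10 optic vesicle, 8 of 11 mesenchyme and crest, 5 of 6 endothelial, 4 of 6 red cell and 5 of 7 neuronal probes. The part of these cells in the junction values was not tested.

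**Figure D4:**
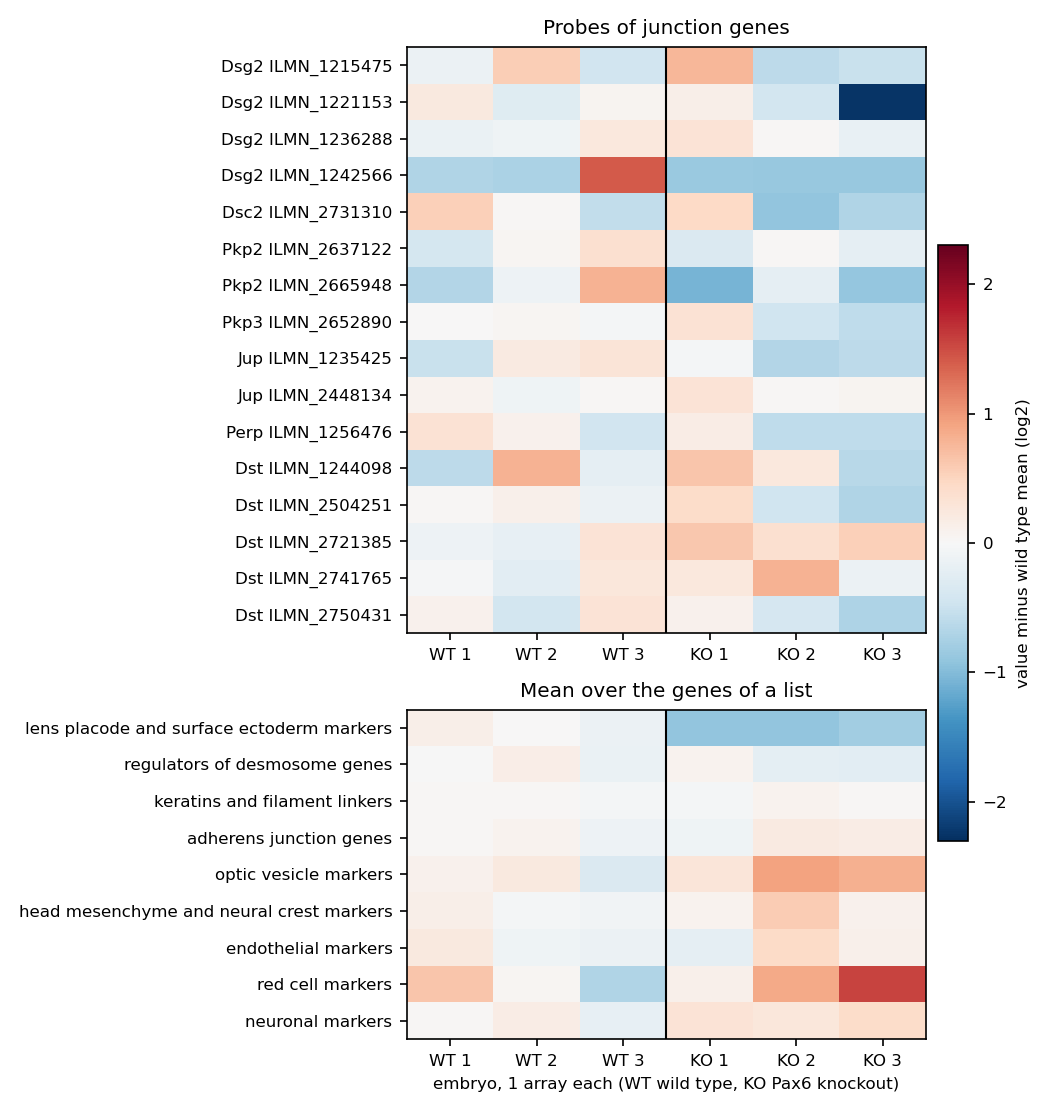
Value of each embryo minus the wild type mean (log2, colour scale from blue below to red above) for the 16 tested junction probes in the upper panel and for the mean over the tested genes of each list in the lower panel. Knockout 1 (KO 1) is mostly pale red in the upper panel, where knockout 2 and 3 are mostly blue, and knockout 2 and 3 are red for the optic vesicle and red cell lists.

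Mean values of 12 placode and surface ectoderm genes that passed the detection filter were 9.11 to 9.37 in the wild type and 8.33 to 8.44 in the knockout, with 19 of 21 probes negative, and 2 of them, those of Maf and Prox1, past the threshold. Without these 2 genes the means were 9.10 to 9.27 and 8.72 to 8.80. Pax6 itself is in the list and stayed in these means. The positive probes were those of Krt8 and Krt18. Of the 21 probes, 11 had a negative change at an unadjusted p under 0.05 in limma, beside 7.22% of all tested probes in either direction. General epithelial members of the list included Esrp1, an epithelial splicing factor, with -0.27 (adjusted p = 0.827), and Cdh1 and Krt8, given below. Tfap2a, a surface ectoderm member also given below, had negative changes by all of its probes. Epcam, an epithelial adhesion molecule, read 9.79, 9.77 and 9.61 against 9.44, 9.13 and 9.45, a change of -0.38 (unadjusted p = 0.0277, adjusted p = 0.622 in limma). Each knockout value lay below each wild type value, which 6.47% of all tested probes showed. Keratin genes and filament linkers averaged 7.31 to 7.38 in the wild type and 7.32 to 7.44 in the knockout, with 0 of 8 probes called and none at an unadjusted p under 0.05 in limma. Krt8 and Krt18, the keratin pair of simple epithelia to which desmosomes attach, had changes of 0.14 and 0.15 (SE 0.16 and 0.14, adjusted p = 0.933 and 0.90). Krt5 and Krt14, the pair of basal stratified epithelium, had changes of -0.33 and -0.40 (SE 0.34 and 0.25, adjusted p = 0.919 and 0.824). The smallest p of this list were those of Krt7, with 0.33 (adjusted p = 0.707), and vimentin, Vim, with 0.41 (adjusted p = 0.723).

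Of 11 other desmosome genes 5 passed the detection filter, with 9 probes, 3 negative and 6 positive, a median change of 0.09 and 0 called or at an unadjusted p under 0.05 in limma. The smallest p was that of Pkp4, a plakophilin relative found at both desmosomes and adherens junctions, by ILMN_2620484, whose change was -0.88 (SE 0.50, adjusted p = 0.797). The other Pkp4 probes had changes of 0.11 (ILMN_1233340, SE 0.14), 0.12, 0.01 and -0.24. Evpl, the plakin envoplakin, had a change of -0.39 (SE 0.52, adjusted p = 0.94). Among the cadherins of stratified epithelium, Dsg1a and Dsg3 were detected in all 3 embryos of both genotypes, with changes of 0.09 and 0.16 (adjusted p = 0.988 and 0.968), and probes of Dsc1, Dsc3, Dsg1b and Dsg1c did not pass the detection filter.

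Of 10 other genes listed for hemidesmosomes and basement membrane adhesion 6 passed the detection filter, with 13 probes. Of these 5 were negative and 8 positive, with a median change of 0.11. None was called, and 1 had an unadjusted p under 0.05 in limma, beside 7.22% of all tested probes. This was Itga3, the laminin receptor chain α3, which is not a chain of the hemidesmosomal α6β4 receptor. It read 8.44, 8.50 and 8.02 in the wild type and 8.02, 7.21 and 7.45 in the knockout. Knockout 1 touched the lowest wild type value, and the change was -0.76 (SE 0.26, unadjusted p = 0.018, adjusted p = 0.565). Itga6, the partner of integrin β4, had positive changes by all 3 of its probes, 0.18, 0.33 and 0.35 (adjusted p = 0.978, 0.911 and 0.923). Plec, plectin, had negative ones by all 3 of its own, -0.37, -0.10 and -0.09 (adjusted p = 0.938, 0.988 and 0.976). Col17a1 and Lamb3, a further receptor and a chain of its laminin ligand, did not pass the detection filter.

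The adherens junction, the actin-linked junction beside the desmosome, had 22 tested probes of 12 genes, 12 negative and 10 positive, with a median change of -0.09 and 0 called. At an unadjusted p under 0.05 in limma there were 1 negative and 2 positive, beside 7.22% of all tested probes in either direction. Ctnna2, the neural α-catenin, read 7.24, 5.97 and 5.02 in the wild type and 8.06, 8.54 and 8.03 in the knockout. Each knockout value lay above each wild type value, which 5.54% of all tested probes showed. The change was 2.13 (SE 0.51, adjusted p = 0.334). Cdh3, P-cadherin, had a change of -0.88 by one probe (adjusted p = 0.638) and 0.14 by the other (adjusted p = 0.969). Cdh1, E-cadherin, had changes of -0.18 and -0.45 (adjusted p = 0.951 and 0.922). The means of this list over genes were 7.99 to 8.19 in the wild type and 8.0 to 8.30 in the knockout.

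Transcription factors known to act on desmosome or epithelial genes had 20 tested probes of 10 genes, 12 negative and 8 positive, with 0 called. At an unadjusted p under 0.05 in limma there were 4, all negative and all of Tfap2a or Ovol1, beside 7.22% of all tested probes. All 5 probes of Tfap2a, the AP-2α factor of surface ectoderm, had negative changes, from -1.45 to -0.59, with adjusted p of 0.418 to 0.723. Ovol1, a repressor in epithelial differentiation, had a change of -0.95 (SE 0.32, adjusted p = 0.525). Trp63, the p63 gene and a regulator of Perp, read 8.69, 8.90 and 8.27 in the wild type and 8.81, 8.13 and 9.09 in the knockout, a change of 0.06 (SE 0.27, adjusted p = 0.988). Knockout 3 was the highest embryo for Trp63. Grhl2, a grainyhead factor of simple epithelia, had changes of 0.13 and 0.31 (adjusted p = 0.945 and 0.89). Zeb1, a repressor of epithelial genes, had changes of 0.75 and 0.26 (adjusted p = 0.736 and 0.899), with knockout 2 and 3 high by the former.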

How the data were processed

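Per the submitters' processing notes GenomeStudio was used. The main deposited table gives, for 46632 probes, the mean brightness of their beads as a linear intensity, neither background-subtracted nor normalized as its values show. Beside it the authors deposited a detection p-value and the count of beads per probe and array. A second deposited table of background-subtracted intensity, made by steps not given in the sources used here, served only as an alternative. Symbols were taken from the platform annotation in GEO, which gives 29976 probes a single symbol and 10 more than one and leaves 16646 unnamed here. Of the named probes, 29921 matched by Entrez identifier RefSeq's table of GRCm38.p6. The array's build is not stated, so no coordinates are printed, and probe sequences were not used here.

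Background was corrected by normexp, with negative controls inferred from detection p-values and an offset of 16. Signals were then quantile normalized and brought to log2. A probe was tested, on its own, if 3 or more arrays had a detection p under 0.05 for it, with lmFit and eBayes with a variance trend (limma 3.58.1, R 4.3.3), and adjusted with Benjamini-Hochberg over 19381 probes. A gene undetected on all arrays of a genotype has a bound: the mean of the brighter group is set against that of the dim group, in which no array counts lower than its lowest detected signal. List means take the brightest probe of a gene. The p-values rest on the spread between embryos, 1 array each, and the number of arrays limits the precision.

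The members, the lists and the tests were chosen with earlier results of these data known. Named genes were all member probes, probes past the threshold and up to 4 genes of smallest p in each other list, and the sex-linked genes. Genes named beyond that (Epcam, Esrp1, Krt8, Krt5, Plec, Cdh1, Dsg1a, Trp63, Grhl2 and the undetected and defining markers) were chosen for their role after values were seen. A planned search for genes with a profile like that of Dsp could not be made. On simulated data (19381 probes, 200 changed, 10 simulations) the fit recovered 30.2% of changes of 1 and 90.5% of changes of 2 on the log2 scale, with 5.32% false calls and 0 calls without changes. The simulated noise was independent for each probe and array, with no array standing apart as knockout 1 does here. These rates may therefore not hold for these arrays. Alternatives were the filter, background correction, offset, the deposited normalized table, median scaling, the variance model, array weights, the choice of probe, each array left out in turn, and a block for the replicate number. The count of probes highest in knockout 1 under other scalings and the placode list's mean without its called genes were added after seeing the data.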

Additional observations from a re-analysis of the deposited data

How the results depend on the processing

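Under 18 alternatives 0 junction probes were called, and the smallest adjusted p over probes and alternatives was 0.605. The direction was the same under every alternative that tested it for 12 of the 16 probes. Dsg2 ILMN_1236288 turned to -0.11 with median scaling and ran from -0.072 to 0.18 with 1 array left out. Dst ILMN_1244098 turned to -0.075 with median scaling and -0.15 with array weights, and ran from -0.22 to 0.48 with 1 array left out. With 1 array left out, Dsg2 ILMN_1215475 ran from -0.33 to 0.12 and Pkp2 ILMN_2637122 from -0.37 to 0.0036. The cause was not tested. The median change of the junction probes, -0.24, was negative throughout and ran from -0.56 without knockout 1 to -0.10 without knockout 3 with 1 array left out. It was -0.03 with no filter, which adds the undetected probes.

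Over all probes 18 were called. The count was 7 with no filter, 68 with the stricter filter (which tests 10577 probes), 11 with median scaling and 30 with array weights. With 1 array left out, and so fewer samples, it ran from 0 (wild type 1 left out) to 5 (knockout 1 left out), with 2 when wild type 2 or 3 and 3 when knockout 2 or 3 was left out. Same-numbered arrays of the genotypes did not deviate together (correlations -0.043, -0.022 and -0.047), so the numbers were not taken as pairs. With the replicate number as a block the count was 1 over all probes and 0 among the junction probes. Groups of 3 arrays allow no test of single arrays as outliers.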

Other observations

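Further genes had these changes (knockout minus wild type, log2), none past the limma threshold, each by the probe with the smallest p where a gene has several. In the optic vesicle list Tbx5 had 1.62, Otx2 0.77, Fgf15 0.73 and Lhx2 0.44 (adjusted p = 0.566, 0.65, 0.501 and 0.785), and the other Tbx5 probe had 0.21. Among mesenchyme and crest genes Foxd1 had 1.5, Col3a1 0.93, Pdgfra -0.82 and Prrx1 0.33 (adjusted p = 0.599, 0.637, 0.669 and 0.951), and the other Prrx1 probes had 0.08, 0.13 and -0.13. Endothelial genes included Emcn with 0.84, Ramp2 with -0.23, Cd34 with 0.20 and Cldn5 with 0.43 (adjusted p = 0.822, 0.931, 0.938 and 0.946), and the other Emcn probe had 0.14. For red cell genes Hba-a1 had 2.01, Hba-x 1.83, Hbb-bh1 1.54 and Tal1 -0.70 (adjusted p = 0.592, 0.624, 0.768 and 0.755). Neuronal genes included Isl1 with 1.00, Insm1 with 0.53, Tubb3 with 0.53 and Neurog2 with -0.40 (adjusted p = 0.271, 0.675, 0.863 and 0.885). Mab21l1, a placode gene, had -0.82 and -0.87 by its 2 probes (adjusted p = 0.178 and 0.449).

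Among genes of the junctions and their regulators, Dsg4 had 0.21 and Dsg3 0.16 (adjusted p = 0.855 and 0.968), and Itgb1 had 0.11 and 0.12 by its 2 probes (adjusted p = 0.938 and 0.985). Of the 3 Cd151 probes 2 had 0.21 and 0.22 and 1 had -0.18 (adjusted p = 0.928, 0.946 and 0.973). Cdh2, N-cadherin, had 0.66, -0.30 and -0.11 by its 3 probes (adjusted p = 0.662, 0.94 and 0.983). Ctnnb1, β-catenin, had -0.24, 0.13 and -0.11 (adjusted p = 0.789, 0.96 and 0.967), and Tfap2c -0.36, -0.25 and -0.20 (adjusted p = 0.888, 0.874 and 0.923).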
